A study of Mus musculus with 19 samples.

Results

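Mammary tumours of transgenic mice were compared after 3 weeks of carboplatin and paclitaxel with untreated tumours of the same model. The comparison takes the 7 arrays whose labels give 3 weeks of treatment, whatever the response, and the 7 arrays labelled untreated, which are 14 of the 19 arrays of the series. The other 5 arrays hold tumours after 2 weeks of treatment, 1 called a responder and 4 non-responders. They serve here to share the estimate of spread and as a second treated group. Each array set RNA of 1 tumour, labelled with Cy5, against a whole-mouse reference RNA labelled with Cy3, and the deposited value of a spot is a log2 ratio.

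Per the labels, every mouse, control or treated, was of the FVB strain and carried a transgene in which the rat C3(1) promoter drives the Simian virus 40 T antigen, and every tumour was a mammary adenocarcinoma. This promoter is active in mammary epithelium and in some other epithelia, and T antigen binds p53 and the retinoblastoma protein. All tumours, untreated ones included, arose in mice with this transgene, but the binding was not tested in these tumours. The 7 untreated tumours had no drug. The 7 three-week tumours were labelled as carboplatin and paclitaxel treated, and 2 of them (replicates 1 and 3) were called responders and 5 non-responders. Three-week replicates 2 and 3 bear the same mouse number with different tumour numbers and were called non-responder and responder, so the 7 tumours carry 6 distinct mouse numbers. The sources used here give no dose, schedule, age or sex and no rule for calling response. Nor do they state that the other tumours came from separate cages or experiments, so the p-values measure the spread between these tumours.

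Carboplatin forms platinum crosslinks in DNA and paclitaxel stabilises microtubules, so that dividing cells arrest in mitosis. Damaged cells activate p53, which induces arrest and death genes such as Cdkn1a, although T antigen binds p53 and also frees E2F transcription factors from the retinoblastoma protein, which keeps replication genes on. Dying tumour cells are taken up by macrophages, which digest them in lysosomes with cathepsins and hydrolases. In bulk RNA of a tumour piece, a higher share of a cell type and more RNA of its genes per cell cannot be told apart.

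The start regions of 4 genes are shown, each holding a match to the motif searched for its list. In these lists most members lay on one side of 0. Positive were 22 of 24 lysosomal, 28 of 30 interferon-stimulated and 12 of 40 DNA replication genes, beside 51.2% of all genes. The sequences are RefSeq promoters of assembly GRCm38.p6, read 5′ to 3′ on the strand of the gene, and capitals mark a motif of the transcription factor family known for that group. The windows are chr7:142387849-142387996 on the minus strand for Ctsd, chr2:164833690-164833772 on the plus strand for Ctsa, chr1:128359706-128359885 on the minus strand for Mcm6 and chr19:34583303-34583486 on the plus strand for Ifit3.
Ctsd: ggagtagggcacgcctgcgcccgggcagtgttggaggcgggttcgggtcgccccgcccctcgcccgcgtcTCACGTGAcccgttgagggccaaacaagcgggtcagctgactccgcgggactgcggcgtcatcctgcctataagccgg
Ctsa: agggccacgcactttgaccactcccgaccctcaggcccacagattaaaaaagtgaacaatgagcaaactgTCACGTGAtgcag
Mcm6: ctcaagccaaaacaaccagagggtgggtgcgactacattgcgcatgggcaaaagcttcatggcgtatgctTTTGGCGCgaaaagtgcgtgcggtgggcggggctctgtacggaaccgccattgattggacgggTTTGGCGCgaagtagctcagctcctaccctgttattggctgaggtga
Ifit3: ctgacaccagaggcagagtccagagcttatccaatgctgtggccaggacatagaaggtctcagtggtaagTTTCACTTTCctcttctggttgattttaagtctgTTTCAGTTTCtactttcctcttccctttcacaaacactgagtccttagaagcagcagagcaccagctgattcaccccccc

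The motif searched for lysosomal genes was TCACGTGA, the palindromic E-box that factors of the MiT family such as TFEB bind, on both strands from 250 bases before to 50 after the start. It was found in 243 of 14882 tested genes with a promoter entry (1.63%) and in 2 of 21 such lysosomal genes, Ctsd and Ctsa. For replication genes the E2F motifs TTTGGCGC and TTTCCCGC were searched on both strands, and either was present in 384 of the 14882 genes (2.58%), in 12 of 32 DNA replication genes and in 3 of 9 genes of mismatch repair and RecQ helicases. The Mcm6 window holds TTTGGCGC at 2 places. For interferon-stimulated genes the motif was the core of the interferon-stimulated response element, a repeat of GAAA with a spacer of any 2 bases, found on either strand in 580 genes (3.90%) and in 15 of 23 members of the interferon response list. In the Ifit3 window both matches lie on the opposite strand and read as their reverse complement. A match describes these letters only and shows neither binding nor a cause.

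As a check of the tissue, the epithelial genes Epcam, Krt18 and Krt8 were well above the reference in both groups. Epcam stood at a log2 ratio of 2.47 ± 0.31 (SD, n = 7) in untreated and 2.30 ± 0.42 (SD, n = 7) in three-week tumours. Krt18 stood at 2.75 ± 0.97 and 2.28 ± 0.81, and Krt8 at 1.17 ± 0.46 and 1.64 ± 0.36. The epithelial genes Cdh1 (-0.43 ± 0.76 and -0.63 ± 0.75) and Krt19 (-0.62 ± 0.85 and 0.17 ± 0.42) were near or below the reference. The liver genes Fabp1 (-6.85 ± 1.19 in untreated tumours) and Apoa1 (-4.64 ± 1.17) were far below the whole-mouse reference, from which the direction tumour over reference is likely, though no source states it. If the ratio ran the other way, every sign given here would turn. Array medians of the 14 arrays lay between -0.056 and 0.009, and 1.71% to 9.10% of an array's spots were listed at exactly 0 and taken as not measured. Arrays of the comparison correlated over genes at 0.749 to 0.840 within untreated tumours, 0.741 to 0.878 within three-week tumours and 0.665 to 0.872 between the groups, and the pair with 1 mouse number at 0.846. The number of arrays limits the precision.

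After 3 weeks of treatment, the monocyte antigen Ly6c2, the lysosomal proteases Ctsd and Ctsa and the epithelial crosslinking enzyme Tgm1 were among the genes that rose, and the replication genes Mcm6 and Mcm4, the condensin subunit Smc4 and the transcription factor Egr2 were among those that fell. In limma, fitted over all 19 arrays in 3 groups with Benjamini-Hochberg adjustment and a threshold of 0.05, 107 of 18553 genes passed (0.577%). Of these, 54 were higher (0.291%) and 53 lower (0.286%) after 3 weeks, 22 and 21 of them by over 2-fold. Adjusted p of these genes lay between 0.0151 and 0.0485, so none was far inside the threshold. At an unadjusted p under 0.05 there were 3021 genes (16.3%), 1592 higher and 1429 lower, where chance gives 928. The median difference of all genes was 0.01. With quantile normalization between arrays 147 genes passed, 89 higher and 58 lower.

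How many genes passed depended strongly on the arrays in the fit. With only the 14 arrays of the comparison, 0 genes passed in limma, with a smallest adjusted p of 0.0597 and 2906 genes at an unadjusted p under 0.05. All 107 genes had an unadjusted p under 0.05 in that fit. Leaving out three-week replicate 1, a responder, left 0 genes. Without untreated replicate 6, 4 or three-week replicate 6 the count was 1, 2 and 7, and without three-week replicate 3 it was 18. Without three-week replicates 2, 4 and 5 it was 47, 52 and 56, and without untreated replicates 5, 2 and 3 it was 51, 56 and 78. Without untreated replicate 1 it was 368, without three-week replicate 7 it was 158 and without untreated replicate 7 it was 114. With the 2 three-week tumours of 1 mouse number averaged, 36 genes passed, and with non-responders alone against untreated, 0 passed in limma and 2215 genes had an unadjusted p under 0.05. Each call below therefore ends in at least 3 of these settings: the 14-array fit, the fit without three-week replicate 1 and the fit of non-responders alone.

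The titles are written in 2 styles, with or without a hyphen before the mouse number, and the styles are spread unevenly. Among three-week tumours 4 arrays are hyphen-titled and 3 unhyphenated, and among untreated tumours 2 and 5. Among two-week tumours 1 array, that of the responder, is hyphen-titled and 4 are unhyphenated. The sources used here do not say what the styles stand for. With the style as a block 72 genes passed, 58 of them among the 107. Within the hyphen-titled arrays 2 passed, with 0 of them among the 107 and 2016 genes at an unadjusted p under 0.05. Within the unhyphenated arrays limma passed 0, with 2134 at an unadjusted p under 0.05. Mouse numbers also differ between the groups, and with the number as a linear covariate 0 genes passed in limma, with 2561 at an unadjusted p under 0.05. The direction of the 107 genes was the same in each setting tried, with 106 of them measured when only spots present on every array were used, except that Mcm4 stood at 0.08 within the hyphen-titled arrays. Some called values moved by over 1.5 times within a style. Within the hyphen-titled arrays Psmc5 was at 0.33, Tmem132a at 0.66, Cox20 at -0.68 and Upk3bl at 2.41. Within the unhyphenated arrays Upk3bl was at 0.85 and Plxnb2 at 0.63. Ugt1a6b was at 1.02 and 0.35 within the styles. With exact zeros kept as values Ugt1a6b was at 0.72 and Mcm4 at -0.56.

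**Figure D1:**
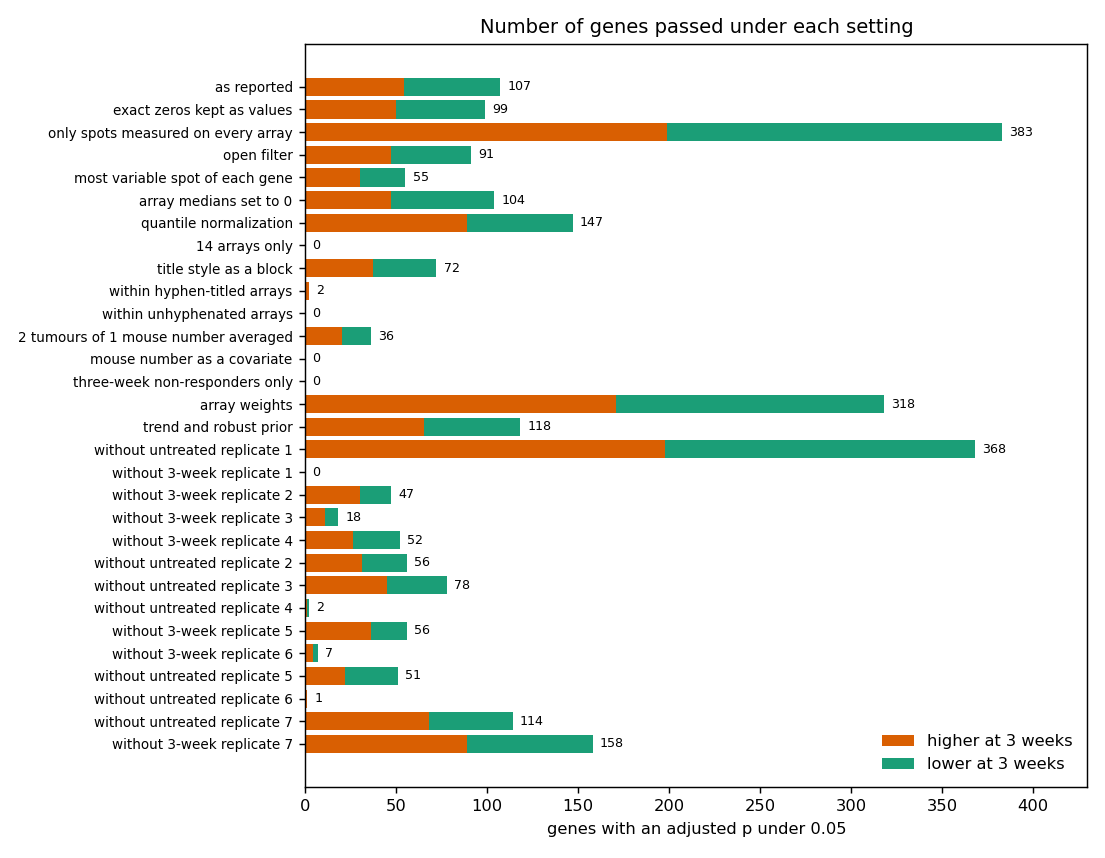
Number of genes past an adjusted p of 0.05 between three-week treated and untreated tumours (horizontal axis) under each setting (vertical axis), with genes higher after 3 weeks in orange and lower ones in green. The count as reported is 107, it is 0 with 14 arrays only, without three-week replicate 1, within unhyphenated arrays, with the mouse number as a covariate and with non-responders only, and it reaches 383 with only spots measured on every array.

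Among the monocyte and macrophage genes that passed, Ly6c2, a surface antigen of inflammatory monocytes, had the largest rise. Its log2 ratio was -1.30 at the lowest, -0.11 at the median and 1.30 at the highest in untreated tumours, and 1.15, 1.92 and 2.44 after 3 weeks. Only the lowest three-week tumour overlapped with the highest untreated ones. The difference was 1.87 ± 0.37 (SE, n = 7 and 7), or 3.65-fold (limma adjusted p = 0.0311), and 7 of 7 three-week tumours lay above the untreated mean. Ly6c2 has close relatives in sequence, and whether its probe tells them apart was not tested. Fcgr3, a receptor for IgG on macrophages and NK cells, ran from -0.30 over a median of 0.39 to 1.29 in untreated tumours and from 1.15 over 1.30 to 1.95 after 3 weeks. It rose by 1.00 ± 0.22 (limma adjusted p = 0.0478), with an overlap of the highest untreated tumour.

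Chil3, a chitinase-like protein of alternatively activated macrophages, went the other way. Untreated tumours lay at -0.23 to 2.39 with a median of 1.67, and three-week tumours at -3.54 to 0.47 with a median of -0.73. The difference was -2.43 ± 0.54, or 5.37-fold (limma adjusted p = 0.0471), with 1 untreated tumour within the three-week range and a wide spread among treated tumours (SD 1.39). The mean of Chil3 was -2.61 in the 2 three-week responders and -0.34 in the 5 non-responders, a contrast that did not pass (limma adjusted p = 0.593). Arg1, the arginase of the same macrophage state, was chosen after its values were seen. It stood at -4.27, -1.91 and -0.60 at the lowest, median and highest of untreated tumours and at -0.48, -0.04 and 0.92 after 3 weeks. All 7 three-week values were above all 7 untreated values, but the difference of 1.91 ± 0.51 did not pass (limma adjusted p = 0.0777). Lyz1, the lysozyme of myeloid cells, was 1.43 ± 0.35 higher without passing (limma adjusted p = 0.063). Of 27 measured macrophage and monocyte genes, Ly6c2 and Fcgr3 rose and Chil3 fell. The list's median difference was 0.45, beside 0.01 for all genes, with 20 members positive and 12 higher and 1 lower at an unadjusted p under 0.05, where all genes had 8.58% higher and 7.70% lower. Without three-week replicate 1 the median was 0.24.

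Cyba and Slfn2 were among the largest rises outside that list. Cyba, a membrane subunit of the NADPH oxidase that makes superoxide, lay between -0.27 and 1.52 (median 1.02) in untreated tumours and between 1.69 and 2.62 (median 1.89) after 3 weeks. The groups did not overlap, and the rise was 1.18 ± 0.23 (limma adjusted p = 0.0299). Slfn2, a Schlafen protein of immune cells, ran from -0.16 to 1.39 (median 0.52) without treatment and from 1.47 to 2.93 (median 1.97) with it. It too was separated in full, at 1.46 ± 0.28 (limma adjusted p = 0.029). Over all 15327 genes measured on the 14 arrays, 72 (0.470%) had all three-week values above all untreated ones and 74 (0.483%) all below.

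Lysosomal genes were higher on most three-week arrays. Ctsd, the aspartyl protease cathepsin D, stood at -0.15, 0.12 and 0.85 at the lowest, median and highest of untreated tumours and at 1.03, 1.41 and 2.41 after 3 weeks. Every three-week tumour was above every untreated one, and the rise was 1.22 ± 0.22, or 2.33-fold (limma adjusted p = 0.0222, exact permutation p = 0.000583, the smallest that 7 against 7 can give). Any gene without overlap gets this unadjusted permutation p, so it adds nothing to the separation itself. Ctsa, the protective protein and cathepsin A that stabilises lysosomal neuraminidase, stood at -1.30, -0.51 and -0.35 in untreated and at -0.11, 0.09 and 0.37 in three-week tumours. These values did not overlap either, and the rise was 0.82 ± 0.16, or 1.76-fold (limma adjusted p = 0.0299), with its 3 spots at 0.32 to 1.13. These are the genes whose TCACGTGA windows are printed above. Napsa, an aspartyl protease related to Ctsd, rose by 1.20 ± 0.22 (limma adjusted p = 0.0222), from a range of -2.55 to -1.41 to one of -1.41 to -0.29 with no overlap.

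Of the 24 measured lysosomal genes, Ctsd and Ctsa rose and 0 fell, 22 were positive and 14 were higher at an unadjusted p under 0.05. The list's median was 0.67. The next members were the cathepsin Ctsz at 0.97 ± 0.24 (limma adjusted p = 0.0625) and the glucuronidase Gusb at 0.97 ± 0.25 (limma adjusted p = 0.0675). The mean of the list ran from -0.81 to 0.09 on untreated arrays and from 0.02 to 0.76 on three-week arrays, where 6 of 7 lay above the highest untreated array. The median was 0.93 within the hyphen-titled and 0.57 within the unhyphenated arrays. Atp6v1b2, a subunit of the proton pump that acidifies lysosomes, is not in the list and was chosen after its value was seen. It rose by 0.98 ± 0.22 (limma adjusted p = 0.0471), from -1.89 to -0.34 in untreated to -0.76 to 0.20 in three-week tumours.

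Complement genes had a median difference of 0.71, and none of the 16 measured members passed in limma, while 8 were higher and 0 lower at an unadjusted p under 0.05. Factor B (Cfb), which starts the alternative pathway, was at 1.08 ± 0.27 (limma adjusted p = 0.063), and properdin (Cfp), which stabilises its convertase, at 0.99 ± 0.25 (limma adjusted p = 0.0678). The C1q chains C1qa and C1qb, made by macrophages, were at 1.01 ± 0.30 and 0.82 ± 0.25. Means of the list were above the untreated mean on 7 of 7 three-week arrays.

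**Figure D2:**
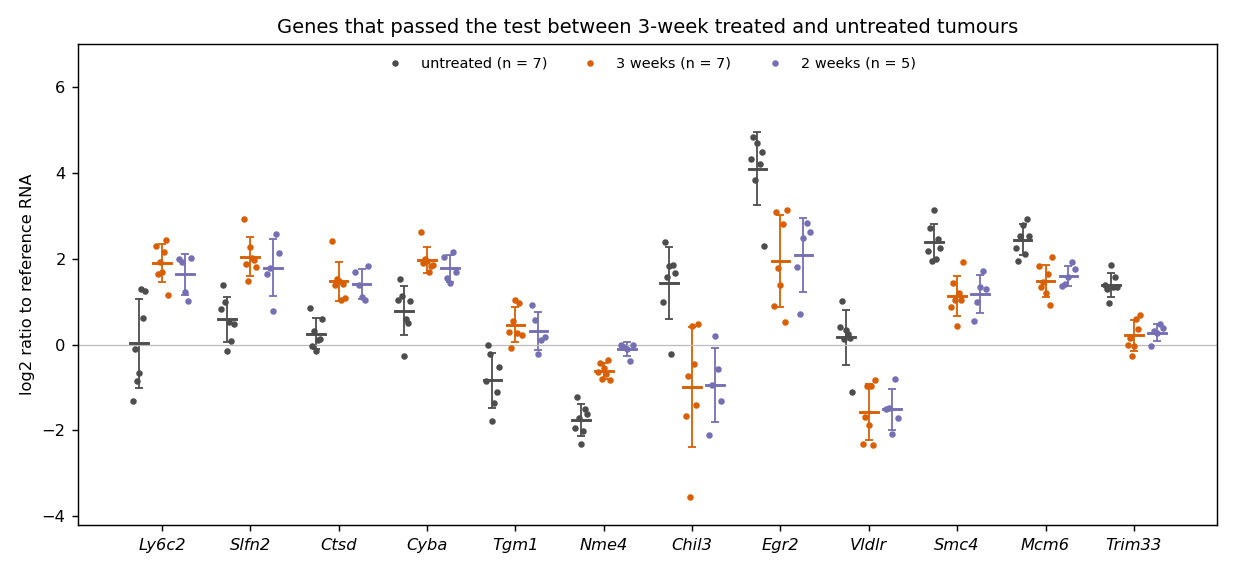
Log2 ratio of tumour to reference RNA (vertical axis) of 12 genes that passed between three-week and untreated tumours (horizontal axis), 1 point per tumour, with the mean and SD of untreated (grey, n = 7), three-week (orange, n = 7) and two-week tumours (violet, n = 5). For Slfn2, Ctsd, Cyba and Nme4 all three-week points lie above all untreated points, and for Smc4 and Trim33 all lie below.

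Interferon-stimulated genes were mostly positive without any member passing. Ifit3, an antiviral protein induced by interferon, ran from -0.62 over 0.36 to 0.85 in untreated tumours and from 0.95 over 1.16 to 1.25 after 3 weeks. All three-week values lay above all untreated ones and within a narrow band (SD 0.11 against 0.51), and the difference was 0.79 ± 0.20 (limma adjusted p = 0.0685). Bst2, the tethering protein tetherin, stood at 1.51 ± 0.38 (limma adjusted p = 0.0668), the largest difference of the list. Oas1a, an oligoadenylate synthetase, was at 0.68 ± 0.20, and Ifi35 at 0.76 ± 0.23. Of 30 measured members 28 were positive, 14 were higher and 0 lower at an unadjusted p under 0.05, and the median was 0.54. On arrays the list's mean was 0.70 to 2.09 without treatment and 1.68 to 2.61 after 3 weeks, so that 3 of 7 three-week arrays exceeded the highest untreated array. Within the hyphen-titled arrays the median was 0.36 and within the unhyphenated arrays 0.72.

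Antigen presentation genes had a median of 0.53 over 20 measured members, 18 positive and 0 passing in limma (8 higher and 0 lower at an unadjusted p under 0.05). Psmb10, a subunit of the immunoproteasome that cuts peptides for class I molecules, came nearest at 0.92 ± 0.21 (limma adjusted p = 0.0531). Its untreated values ran from 0.20 to 0.80 and its three-week values from 0.76 to 2.30. Psmb8, another such subunit, was at 0.66 ± 0.21, the peptide transporter Tap1 at 0.96 ± 0.33 and H2-T23, a nonclassical class I molecule, at 0.90 ± 0.31. Within the hyphen-titled arrays the median was 0.26, and within the unhyphenated arrays 0.64.

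No lymphocyte marker passed, and 1 tumour stood apart in them. T and NK cell genes had a median of 0.47, with 0 of 23 members passing in limma and 2 higher at an unadjusted p under 0.05. Il2rb, a receptor chain for interleukins of T and NK cells, lay between 0.32 and 1.37 in the 6 untreated tumours where it was measured and between 0.78 and 4.55 in three-week tumours. The highest value, 4.55, was that of three-week replicate 1, a responder, and the next was 2.13. Without that replicate the list's median was 0.20. Gzmb, the granzyme of killer cells, was at 1.05 ± 0.45 (limma adjusted p = 0.252). Neutrophil genes had 0 of 16 members passing in limma and 1 higher at an unadjusted p under 0.05, with a median of 0.41. Ltf, an iron-binding granule protein, was at 1.86 ± 0.74 and the protease inhibitor Stfa3 at 1.43 ± 0.71. Chemokines had a median of 0.28, with Ccl6 at 1.20 ± 0.32 (limma adjusted p = 0.078) and the interferon-induced Cxcl10 at 1.21 ± 0.44. B and plasma cell genes (median 0.16) and mast cell genes (median 0.14) had 0 members passing in limma, with 4 and 1 higher at an unadjusted p under 0.05. Checkpoint genes had a median of 0.26, which was -0.01 within the unhyphenated arrays, also with 0 passing and 2 higher at an unadjusted p under 0.05.

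Genes of fibroblasts and the collagen matrix were positive in 28 of 29 measured members, with a median of 0.53, but 0 passed in limma and 5 were higher at an unadjusted p under 0.05. Tumours varied widely in them: the list's mean ran from -2.46 to -0.87 in untreated and from -2.05 to -0.28 in three-week tumours, and only 4 of 7 three-week tumours lay above the untreated mean. Efemp1, a fibulin of the matrix, was at 1.77 ± 0.47 (limma adjusted p = 0.075) and the mesenchymal homeobox gene Prrx2 at 1.50 ± 0.39 (limma adjusted p = 0.0744). Fbln1 was at 1.51 ± 0.53 and the crosslinking enzyme Loxl1 at 0.98 ± 0.40. Among matrix proteases and inhibitors (median 0.57, 0 of 26 passing in limma, 8 higher at an unadjusted p under 0.05), the collagenase Mmp13 was at 1.94 ± 0.71, Mmp2 at 1.42 ± 0.49 and Mmp23 at 1.05 ± 0.27 (limma adjusted p = 0.0721). The medians of these lists were 0.20 and 0.25 among hyphen-titled and 0.76 and 0.75 among unhyphenated arrays. Without three-week replicate 6 the fibroblast median was 0.35.

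Of 23 measured TGF-beta pathway genes, 1 fell and 0 rose, with a median of 0.18. In this list 17 were positive, and 5 were higher and 1 lower at an unadjusted p under 0.05. The gene that fell was Trim33, a ubiquitin ligase that acts on Smad4 and also reads chromatin. Its untreated values were 0.96, 1.34 and 1.86 at the lowest, median and highest, and its three-week values were -0.26, 0.15 and 0.70. No tumour of one group reached the other, and the difference was -1.18 ± 0.17, or 2.26-fold (limma adjusted p = 0.0151), with Nme4 the smallest adjusted p of the comparison. The secreted Tgfbi and the ligand Tgfb3 were at 1.56 ± 0.46 (limma adjusted p = 0.106) and 0.64 ± 0.19 (limma adjusted p = 0.113). Regulators and markers of epithelial-mesenchymal transition had a median of -0.13 with 0 of 19 passing in limma, 2 higher and 3 lower at an unadjusted p under 0.05. The related mesenchymal factors Twist1 and Twist2 stood on opposite sides, at -0.81 ± 0.27 and 0.96 ± 0.33, and the epithelial factor Grhl2 at -0.99 ± 0.34.

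No vascular gene passed. Endothelial genes had a median of 0.25 and 0 of 24 passed in limma, with 5 higher at an unadjusted p under 0.05. The median was 0.38 without untreated replicate 1 and 0.05 within the hyphen-titled arrays. Eng, a TGF-beta co-receptor of vessels, was nearest to passing at 0.92 ± 0.21 (limma adjusted p = 0.0508), with untreated values of -1.63 to -0.43 and three-week values of -0.44 to 0.37. The highest of the latter was again three-week replicate 1. The tight junction gene Cldn5 was at 1.10 ± 0.31 (limma adjusted p = 0.097). Among pericyte and smooth muscle genes, the potassium channel Kcnj8 was at -1.22 ± 0.30 (limma adjusted p = 0.0584) and the calponin Cnn1 at 1.38 ± 0.48, with a list median of 0.18 and 0 of 14 passing in limma (2 higher and 2 lower at an unadjusted p under 0.05).

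The medians of skeletal muscle and fat markers were unlike in the 2 title styles, a difference that was not tested. Muscle genes were positive in 25 of 25 measured members with a median of 0.51, but the median was 1.63 among hyphen-titled and -0.35 among unhyphenated arrays. Adipocyte genes had a median of 0.76, with 1.67 and 0.11 within the styles. None of the 25 and 18 members passed in limma, and 2 of each list were higher at an unadjusted p under 0.05. Muscle myoglobin (Mb) reached -0.33 in three-week replicate 1 against at most -2.48 in the other three-week tumours, and the muscle enolase Eno3 was at 1.10 ± 0.52. For the fat droplet protein Plin4 (1.76 ± 0.76) and the hormone Adipoq (1.40 ± 0.65), untreated replicate 7 stood highest of its group, at -0.45 and -0.86. Without it the adipocyte median was 1.17. The list means were below the whole-mouse reference on all 14 arrays, at -5.24 to -2.07 for muscle and -4.36 to -0.92 for fat, and the part of these markers in the other results was not tested.

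Luminal epithelial genes had no common direction, with 11 of 22 positive, a median of 0.03 and 0 passing in limma (2 higher and 3 lower at an unadjusted p under 0.05). Cd24a, the member with the smallest p, was higher without passing. It stood at 0.70 to 1.07 over the 29 alternative settings and passed in 2 of them. The luminal progenitor factor Elf5 was at -1.42 ± 0.51, the receptor Kit at -0.77 ± 0.30 and the luminal factor Gata3 at -0.84 ± 0.35, with adjusted p of 0.169, 0.203 and 0.243 in limma. The mean of Elf5 was -0.76 in the 2 three-week responders and 1.37 in the 5 non-responders (limma adjusted p = 0.608). Basal genes had a median of 0.29 and also 0 of 22 passing in limma, with 7 higher and 1 lower at an unadjusted p under 0.05. The basal keratin Krt14 was at 0.95 ± 0.31 and Krt17 at 0.86 ± 0.27, while the laminin receptor Itga6 was at -0.71 ± 0.22. Among milk genes 7 of 14 were positive, with a list median of -0.01 and a highest value of 1.08. In limma 0 passed, with 2 higher and 2 lower at an unadjusted p under 0.05. The casein Csn3 was at -1.89 ± 0.71 and the butyrophilin Btn1a1 at -1.03 ± 0.34. Cldn8, at -1.50 ± 0.59, was the lowest of a claudin list that reached 1.10 and had a median of -0.13. Of its 21 measured members 0 passed in limma, with 2 higher and 2 lower at an unadjusted p under 0.05.

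Of 22 genes of cornified squamous epithelium, 1 rose and 0 fell, with 5 higher and 0 lower at an unadjusted p under 0.05. Tgm1, the transglutaminase that crosslinks the cornified envelope, had a median of -0.85 in untreated and 0.29 in three-week tumours, with a highest three-week value of 1.03 and a lowest untreated value of -1.78. The lowest three-week tumour, at -0.07, lay just below the highest untreated tumour, and the rise was 1.30 ± 0.27, or 2.46-fold (limma adjusted p = 0.0346). The related Tgm3 was at 1.15 ± 0.37 and the wound keratin Krt6a at 1.13 ± 0.44, neither of which passed. The list's median was 0.50, but 1.28 among hyphen-titled and 0.03 among unhyphenated arrays, and 0.22 with non-responders alone. Upk3bl, a uroplakin-like protein, rose by 1.49 ± 0.32 (limma adjusted p = 0.0436) and the semaphorin receptor Plxnb2 by 1.46 ± 0.31 (limma adjusted p = 0.0373), with the 2 spots of Plxnb2 at 0.59 and 2.34.

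Of the DNA replication genes, 2 subunits of the replicative helicase fell. Mcm6 stood at 1.94, 2.52 and 2.93 at the lowest, median and highest in untreated tumours and at 0.92, 1.47 and 2.03 in three-week tumours. Three-week replicate 7 alone reached into the untreated range. It fell by 0.95 ± 0.19, or 1.94-fold (limma adjusted p = 0.0336). Mcm4, the other subunit, ran from 2.29 over 2.76 to 3.65 and, after treatment, from 1.50 over 1.69 to 2.36. It also fell by 0.95 ± 0.21 (limma adjusted p = 0.0482), but within the hyphen-titled arrays it stood at 0.08. The primase Prim1 was at -0.99 ± 0.26 (limma adjusted p = 0.078). For the origin recognition subunit Orc2 all three-week values (0.17 to 0.42) lay below all untreated values (0.51 to 1.03), at -0.48 ± 0.13 (limma adjusted p = 0.0748).

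Over the 40 measured replication genes, Mcm6 and Mcm4 fell and 0 rose, 12 were positive and the median was -0.29. At an unadjusted p under 0.05, 14 were lower and 1 higher. On arrays the list's mean was 1.26 to 1.76 without treatment and 0.99 to 1.63 with it, and 1 of 7 three-week arrays lay above the untreated mean. The median was -0.35 and -0.22 within the hyphen-titled and unhyphenated arrays. Even after treatment the list's mean stayed above the whole-mouse reference on every three-week array.

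Mismatch repair genes and RecQ helicases had the lowest median of the lists, -0.39 over 13 measured members, of which 1 fell and 0 rose (6 lower and 0 higher at an unadjusted p under 0.05). Msh6, which recognises base mismatches, stood at 1.46, 1.98 and 2.22 in untreated and at 0.60, 1.08 and 1.41 in three-week tumours, with no overlap. It fell by 0.81 ± 0.16, or 1.75-fold (limma adjusted p = 0.0336). The Bloom helicase Blm was at -0.53 ± 0.14 (limma adjusted p = 0.0721), the exonuclease Exo1 at -0.85 ± 0.29 and Pms2 at -0.59 ± 0.22. All 7 three-week arrays had a list mean below the untreated mean. Without untreated replicate 3 the median was -0.25. Other repair lists had medians of -0.13 for Fanconi and homologous recombination genes, -0.02 for nucleotide excision repair and -0.25 for damage checkpoints. The checkpoint median was -0.40 without three-week replicate 7, -0.12 without untreated replicate 1 and -0.02 within the unhyphenated arrays. The Fanconi median was -0.20 without untreated replicate 3 and -0.31 within the hyphen-titled arrays. Of their 25, 16 and 15 measured members 0 passed in limma, with 3, 2 and 3 lower and 1, 0 and 1 higher at an unadjusted p under 0.05. Fancf was at -0.97 ± 0.29 (limma adjusted p = 0.105) and the checkpoint clamp loader Rad17 at -0.45 ± 0.14.

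E2f8, an atypical E2F that represses replication genes late in S phase, was the member of the Rb and E2F list that fell. It ran from 1.07 over 1.55 to 1.86 in untreated tumours and from 0.59 over 0.68 to 1.01 after 3 weeks, with no overlap, a difference of -0.74 ± 0.17, or 1.68-fold lower (limma adjusted p = 0.0473). Its relative E2f7 was at -0.49 ± 0.18, the pocket protein Rbl1 at -0.71 ± 0.26 and the cyclin Ccnd3 at 0.55 ± 0.20. The list's median was -0.08, with 5 members higher and 5 lower at an unadjusted p under 0.05.

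Smc4 and Cenpk were among the largest falls. Smc4, the core ATPase of condensin, which compacts mitotic chromosomes, lay at 1.95, 2.25 and 3.13 in untreated and at 0.42, 1.04 and 1.92 in three-week tumours. The groups did not overlap and the difference was -1.25 ± 0.24, or 2.38-fold (limma adjusted p = 0.0275). Cenpk, a centromere protein needed for kinetochore assembly, lay at 1.07, 1.85 and 2.64 and at -0.20, 0.55 and 1.21, an overlap of the extremes only. It fell by 1.37 ± 0.28, or 2.58-fold (limma adjusted p = 0.0346), with its 3 spots between -1.50 and -1.01. The mitosis list itself had 0 of 32 members passing in limma, with 4 lower and 0 higher at an unadjusted p under 0.05, and a median of -0.15. Its motor Cenpe was at -0.68 ± 0.21, the spindle protein Nusap1 at -0.91 ± 0.32 and the proliferation antigen Mki67 at -0.45 ± 0.17, none of which passed. Pfas, an enzyme of purine synthesis, fell by 1.25 ± 0.23 (limma adjusted p = 0.027), from a median of 1.47 to one of 0.11.

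**Figure D3:**
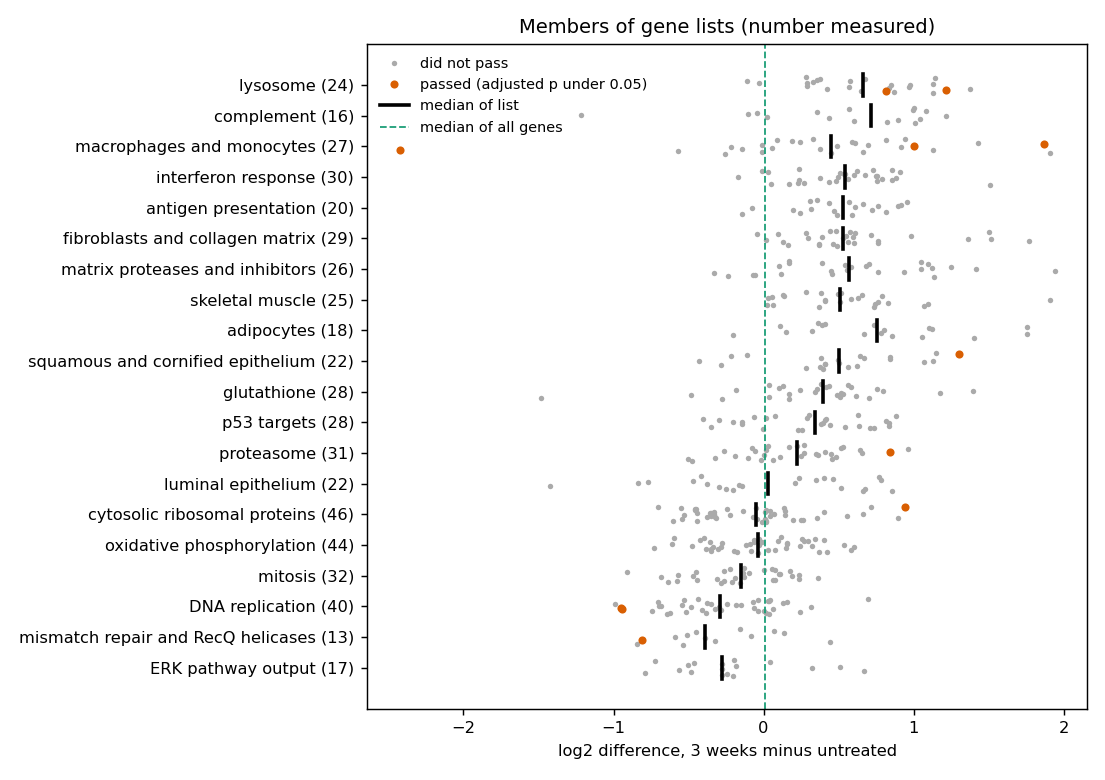
Log2 difference, three-week minus untreated tumours (horizontal axis), of every measured member of 20 gene lists (vertical axis, number measured in brackets), with members that passed in orange, the list's median as a black bar and the median of all genes as a dashed line. Lysosome (0.67) and complement (0.71) lie to the right of 0, while DNA replication (-0.29) and mismatch repair and RecQ helicases (-0.39) lie to the left.

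The list of p53 target genes had a higher mean on most three-week arrays than on any untreated one, although no member passed in limma (0 of 28, with 8 higher and 0 lower at an unadjusted p under 0.05). The list's mean ran from -0.35 to 0.25 over untreated tumours and from 0.24 to 0.48 over three-week tumours, of which 6 exceeded the highest untreated tumour. The median was 0.34, and 0.30 and 0.17 within the hyphen-titled and unhyphenated arrays. Ei24, an endoplasmic reticulum protein induced by damage, was nearest to passing at 0.84 ± 0.19 (limma adjusted p = 0.0508). Its untreated values were -0.78, -0.47 and 0.05 and its three-week values -0.08, 0.39 and 0.79, with 1 untreated tumour inside the three-week range. The kinase Plk3 was at 0.82 ± 0.24, the AKT inhibitor Phlda3 at 0.84 ± 0.26 and Trp53inp1 at 0.88 ± 0.30. Cdkn1a, the p21 inhibitor of cyclin-dependent kinases, also chosen after its values were seen, was at 0.71 ± 0.31 over 10 spots of 0.51 to 0.82 (limma adjusted p = 0.254). After 2 weeks it stood at 1.35 against the same untreated tumours (limma adjusted p = 0.0657).

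Genes of cell death had a median of -0.04 with 0 of 25 members passing in limma (1 higher and 3 lower at an unadjusted p under 0.05). The caspase Casp2 was at -0.86 ± 0.21 (limma adjusted p = 0.0634), the death ligand Tnfsf10 at -1.46 ± 0.38 (limma adjusted p = 0.0704) and the survival protein Bcl2 at -0.55 ± 0.22 over 12 spots. Genes of drug and platinum handling had a median of 0.27 with 0 of 21 passing in limma (3 higher and 0 lower at an unadjusted p under 0.05). The efflux pumps Abcg2, Abcc5 and Abcb1b, the last a mouse P-glycoprotein that exports taxanes, were at 0.56 ± 0.24, 0.61 ± 0.27 and 0.63 ± 0.30. Glutathione, which binds platinum, is served by a list with a median of 0.40, 24 of 28 members positive and 0 passing in limma (8 higher and 0 lower at an unadjusted p under 0.05). Gpx1, a glutathione peroxidase, came nearest at 0.70 ± 0.16 (limma adjusted p = 0.0508), from -1.01, -0.83 and -0.19 in untreated to -0.23, 0.02 and 0.40 in three-week tumours. The transferases Gsta4, Gstm2 and Gstp1 were at 1.18 ± 0.34, 1.39 ± 0.48 and 0.58 ± 0.20. Within the unhyphenated arrays the glutathione median was 0.04, beside 0.58 within the hyphen-titled arrays. Ugt1a6b, a glucuronosyltransferase, rose by 1.68 ± 0.30, or 3.19-fold (limma adjusted p = 0.0222), with no overlap, but its 2 spots stood at 0.66 and 1.77 and its family shares sequence.

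Tubulins, the binding partners of paclitaxel, had a median of 0.27, 14 of 17 positive and 0 passing in limma (1 higher and 0 lower at an unadjusted p under 0.05). The gamma tubulin Tubg2 was at 0.93 ± 0.40 and Tuba4a at 0.37 ± 0.19. Regulators of microtubules had a median of -0.06, with 0 of 24 passing in limma and 1 higher and 5 lower at an unadjusted p under 0.05. That median had no stable sign. It was 0.06 without untreated replicate 5 and -0.16 without untreated replicate 1, and 0.12 within the hyphen-titled and -0.15 within the unhyphenated arrays. Map7, which binds along microtubules, was at -0.95 ± 0.24 (limma adjusted p = 0.0668) and the tubulin chaperone Tbcb at 0.52 ± 0.15 (limma adjusted p = 0.105).

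Immediate-early genes, which answer growth factors within minutes, held 1 gene that fell. Egr2, a zinc finger transcription factor measured by 10 spots, lay at 2.30, 4.33 and 4.83 in untreated and at 0.52, 1.79 and 3.14 in three-week tumours. Untreated replicate 7, the lowest of its group, lay inside the range of treated tumours. The difference was -2.15 ± 0.47, or 4.43-fold (limma adjusted p = 0.0443), and the spots stood at -2.27 to -2.02. These spots lie on the same arrays, and whether they share a probe sequence was not tested. The related Egr1 was at -0.91 ± 0.29 (limma adjusted p = 0.127) and the neuronal Arc at -0.67 ± 0.22, while the phosphatase Dusp1 was at 0.73 ± 0.24. Over 27 measured members the median was -0.15, with 6 lower and 2 higher at an unadjusted p under 0.05.

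Among outputs and feedback inhibitors of the ERK pathway, 4 of 17 were positive, the median was -0.27 and 0 passed in limma (1 higher and 2 lower at an unadjusted p under 0.05). The inhibitors Dusp6 and Spry2 were at -0.79 ± 0.29 and -0.72 ± 0.24. The kinase Map2k2 was at 0.51 ± 0.17. Notch and Wnt lists had medians of -0.04 and 0.12 and 0 of 20 and 33 members passing in limma, with 1 and 4 higher and 3 and 3 lower at an unadjusted p under 0.05. The Notch targets Hey1 and Nrarp were at -1.51 ± 0.55 and -0.72 ± 0.29, the Wnt factor Lef1 at -0.78 ± 0.25 and the Wnt inhibitor Sfrp1 at 1.01 ± 0.37. Vldlr, a lipoprotein and reelin receptor outside these lists, fell by 1.73 ± 0.31, or 3.32-fold (limma adjusted p = 0.0222). Its untreated values were -1.10, 0.24 and 1.01 and its three-week values -2.33, -1.68 and -0.82, and only untreated replicate 7 lay within the treated range. Shisa2, a modulator of Wnt and FGF receptors, fell by 1.64 ± 0.33 (limma adjusted p = 0.0336) with no overlap.

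Of 31 proteasome subunits 1 rose and 0 fell, with a median of 0.22 and with 9 higher and 2 lower at an unadjusted p under 0.05. Psmc5, an ATPase of the regulatory particle, stood at -0.91, -0.28 and 0.23 in untreated and at 0.28, 0.46 and 0.79 in three-week tumours, and rose by 0.84 ± 0.18, or 1.79-fold (limma adjusted p = 0.0385), without overlap. Psmd3 was at 0.53 ± 0.17. Means of the list lay between -0.15 and 0.05 on untreated arrays and above that range on 6 of 7 three-week arrays. Without untreated replicate 4 the proteasome median was 0.13. Of 46 ribosomal proteins 21 were positive, 5 were higher and 10 lower at an unadjusted p under 0.05, and the median was -0.05. Rps9 rose by 0.95 ± 0.19, or 1.93-fold (limma adjusted p = 0.0336), from a range of -2.09 to -1.09 to one of -0.83 to -0.03, while Rps7 was at -0.70 ± 0.19 and Rpl3 at 0.90 ± 0.27. Oxidative phosphorylation and spliceosome genes had medians of -0.03 and -0.04 with 0 of 44 and 35 passing in limma (6 and 1 higher and 6 and 6 lower at an unadjusted p under 0.05). Cox5a was at 0.59 ± 0.18, Cox7b at -0.73 ± 0.27 and the splicing protein Snrpb at 0.86 ± 0.26. Nme4, a mitochondrial nucleoside diphosphate kinase, rose by 1.15 ± 0.16, or 2.21-fold (limma adjusted p = 0.0151), from -2.33, -1.71 and -1.21 to -0.83, -0.65 and -0.35, with no overlap. Cox20, an assembly factor of cytochrome oxidase, fell by 1.16 ± 0.21 (limma adjusted p = 0.0259).

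Other large rises with no overlap were Tmem160 (1.43 ± 0.29), 5031425E22Rik (1.17 ± 0.21), Tmem132a (1.11 ± 0.20) and the selenoprotein Selenow (1.10 ± 0.24), with adjusted p of 0.0222 to 0.0422 in limma. Cdipt, the enzyme that makes phosphatidylinositol, rose by 1.20 ± 0.20 (limma adjusted p = 0.0222). Other falls with no overlap were Fam199x (-1.22 ± 0.23), Ift80, a protein of ciliary transport (-1.13 ± 0.25, spots from -2.62 to -0.51), Zgrf1 (-1.09 ± 0.22), Afap1l2 (-1.08 ± 0.23), Sun1, a nuclear envelope protein (-1.03 ± 0.22), and Stxbp3 (-0.97 ± 0.20), with adjusted p of 0.027 to 0.0439 in limma. Over the 29 alternative settings Ift80 ran from -2.62 to -0.58 and passed in 7. BC055324 fell by 1.19 ± 0.25 (limma adjusted p = 0.0373). Defb34, a defensin, fell by 2.01 ± 0.44 (limma adjusted p = 0.0439), with untreated values of 1.32 to 4.83. The olfactory receptor genes Olfr971 and Olfr1221 were lower, with differences of -1.55 ± 0.28 and -1.57 ± 0.35 (limma adjusted p of 0.0222 and 0.0482). They were 2 of 826 olfactory receptor genes tested, of which 0 rose. Receptor genes of this family are similar in sequence, and whether the probes tell them apart was not tested.

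**Figure D4:**
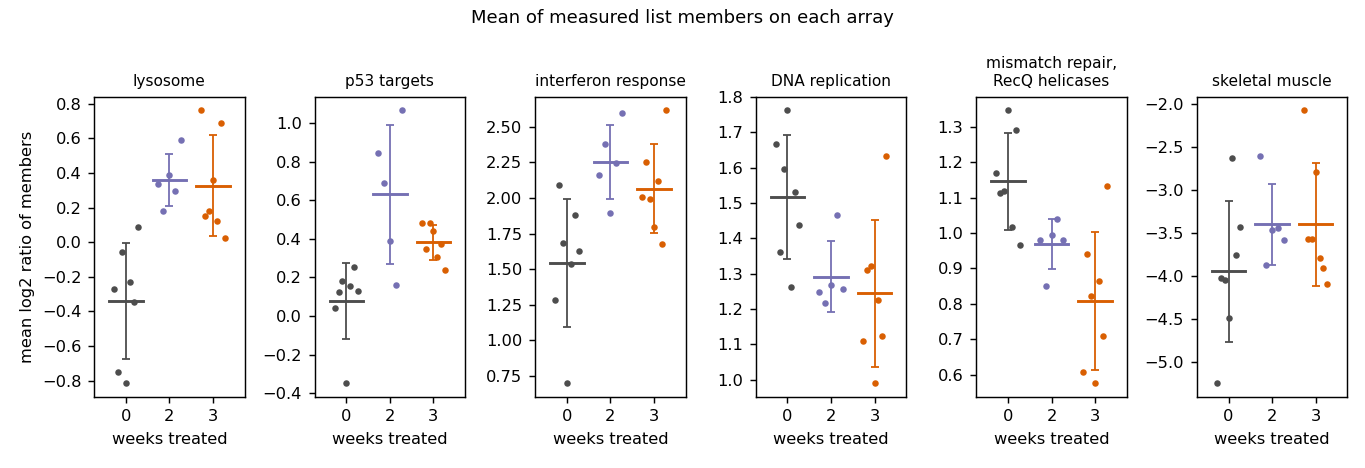
Mean log2 ratio of the measured members of 6 gene lists (vertical axes) on each array of untreated (0 weeks, grey), two-week (violet) and three-week tumours (orange), with the mean and SD of each group. For p53 targets 6 of 7 three-week arrays lie above the highest untreated array, and for mismatch repair and RecQ helicases all 7 lie below the untreated mean.

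Many list medians moved by over 1.5 times when 1 tumour was left out. Without three-week replicate 6 the neutrophil median was 0.15 and the basal median 0.16, and without three-week replicate 1 the checkpoint median was 0.12, that of B and plasma cells 0.04 and that of pericytes and smooth muscle 0.07. Without untreated replicate 4 the medians were 0.18 for chemokines, 0.10 for drug and platinum handling and 0.10 for the TGF-beta pathway. Without untreated replicate 2 the tubulin median was 0.16, without untreated replicate 1 the skeletal muscle median was 0.24, and without three-week replicate 4 the adipocyte median was 0.47. The immediate-early median was 0.02 without untreated replicate 3, and the mitosis median was -0.24 without three-week replicate 7. The medians of lysosome, complement, interferon response, antigen presentation, matrix protease, squamous, p53 target, glutathione, ERK output and DNA replication genes moved by less than 1.5 times in each such fit.

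Tumours after 3 weeks were then compared with those after 2 weeks in the same fit. Response labels and title styles are also split differently between these groups, and the fit does not account for them. In limma 0 of 18553 genes passed, with a smallest adjusted p of 0.773. At an unadjusted p under 0.05 there were 845 genes (4.55%), where chance gives 928. The genes with the smallest p were Rag2, Gm13219 and Stk31. Rag2, a recombinase of lymphocytes, was at 0.23 ± 0.13 (SD, n = 7) after 3 weeks and -0.47 ± 0.16 (SD, n = 5) after 2 weeks, a difference of 0.70 ± 0.14 (SE). Gm13219 and Stk31 were at 2.03 ± 0.41 and -1.49 ± 0.29, each with 3 measured two-week tumours. The result is not evidence that the times act alike: for Ctsd, for example, the difference was 0.07 ± 0.23.

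Against the same untreated tumours, which both contrasts share, 93 genes passed after 2 weeks (0.501%), 64 higher and 29 lower. Of the 107 genes called after 3 weeks, 31 were also called after 2 weeks, which is 29.0% of the three-week calls and 33.3% of the two-week calls. Side by side, Ctsd stood at 1.22 after 3 and 1.15 after 2 weeks, Ly6c2 at 1.87 and 1.61, Chil3 at -2.43 and -2.39, Smc4 at -1.25 and -1.21 and Mcm6 at -0.95 and -0.83. Upk3bl was at 1.49 after 3 and 0.59 after 2 weeks, Plxnb2 at 1.46 and 0.54 and Defb34 at -2.01 and -0.79. The adipocyte list had a median of 0.76 after 3 and -0.26 after 2 weeks, mismatch repair and RecQ helicases -0.39 and -0.06, and p53 targets 0.34 and 0.46. These pairs were not tested. On two-week and three-week arrays adipocyte list means ran from -4.07 to -3.22 and from -3.95 to -1.07. Those of mismatch repair and RecQ helicases ran from 0.85 to 1.04 and from 0.58 to 1.13. Those of p53 targets ran from 0.16 to 1.07 and from 0.24 to 0.48. Of the two-week arrays 4 are unhyphenated, and within that style the adipocyte median after 3 weeks was 0.11.

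Among the three-week tumours, 2 responders were set against 5 non-responders in a limma fit of 4 groups. Of 18506 genes, 6 passed (0.0324%), and 716 (3.87%) had an unadjusted p under 0.05, fewer than this threshold gives by chance. Paqr3, a Golgi membrane protein, stood at 2.48 and 1.65 in responders 1 and 3 and at -0.09 to 0.52 in the non-responders, a difference of 1.85 ± 0.29 (limma adjusted p = 0.0216). Untreated tumours lay at 0.08 to 0.56, near the non-responders. Gdf7, a ligand of the BMP family, was at -1.24 and -2.12 in responders and at -0.19 to 0.26 in non-responders, a difference of -1.75 ± 0.26 (limma adjusted p = 0.0128). Cuzd1, a secreted protein with CUB domains, was at -2.91 and -2.34 against -0.39 to 0.36, a difference of -2.57 ± 0.36 (limma adjusted p = 0.0128). Aph1c (-3.75 ± 0.57), Olfr172 (-5.15 ± 0.53) and Olfr923 (3.13 ± 0.45) also passed, but each was measured in only 1 responder. With the title style as a block 1 gene passed and within the hyphen-titled arrays 0 in limma, while leaving out 1 tumour gave 5 to 66 genes, 66 without three-week replicate 1 and 40 without three-week replicate 3. The last 2 fits hold 1 responder, which is assumed to vary like the tumours of the other groups. All responders of 3 weeks have hyphen-titled arrays, and 1 of them shares its mouse number with a non-responder.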

How the data were processed

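Tumour RNA of 19 tumours was hybridised with a reference RNA on 2-colour arrays, without dye swaps, per the labels. As deposited, each spot has a log2 ratio per array, a scale read from the values. The authors' scanner settings, background correction, normalization, log base and the meaning of an exact 0 are absent from the labels and the file header used here. From them, exact zeros were set to missing, and only spots with 1 gene in the platform annotation were used (33653 of 45220 spots, with 56 naming several genes and 11511 none). Of the annotated entries 99.4% matched the RefSeq gene table, which changed 0 symbols. A spot was kept if at least 70% of the 19 arrays measured it (32472 spots), and those of a gene were averaged, leaving 18553 genes.

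Tests used lmFit and eBayes of limma 3.58.1 (R 4.3.3), were two-sided and took a threshold of 0.05 after Benjamini-Hochberg adjustment over all genes, with 19 arrays in 3 groups, or 4 for response. The fit was tested on simulated data. Standard errors are those of the fit. Named genes were the 15 largest differences each way among passed genes measured on all 14 arrays, the 10 largest each way without overlap, the up to 4 members of each of 50 gene lists (1226 genes, 1137 measured) with the smallest p, and the leading genes of the other contrasts. Arg1, Cdkn1a, Atp6v1b2 and the tissue markers were named outside this rule. The comparison, the members and the lists were chosen with earlier results of these data known. Lists received no test. Replicates were numbered in accession order and pair nothing. Signal over background was not analysed here. Alternatives covered zeros, spot filters, averaging, scaling, the arrays in the fit, title style, mouse number, response, weights, the variance prior and each tumour left out.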

Additional observations from a re-analysis of the deposited data

Results flagged for a closer look

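A tumour far from the others of its group was found in 24 of 396 groups of values looked at (148 named genes and 50 list means, untreated and three-week tumours apart), where chance gives about 1 in 20, or 19.8. Three-week replicate 1, a responder without which no gene passed, was the highest of its group for Ctsd (2.41, the next tumour at 1.53), Cyba (2.62, next 1.997), Il2rb (4.55, next 2.13), Eng (0.37, next -0.20), Mb (-0.33, next -2.48) and the mean of immune checkpoint genes (1.69, next 0.84).

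Untreated replicate 4 stood apart for Defb34 (4.83, next 2.52), Gata3 (3.99, next 2.64), Arg1 (-4.27, next -2.03) and Krt17 (-1.01, next 0.72), and for the means of chemokines (0.15, next 1.09) and p53 targets (-0.35, next 0.04). Untreated replicate 7 stood apart for Egr2 (2.30, next 3.83), Vldlr (-1.10, next 0.13), Plin4 (-0.45, next -4.06), Ei24 (0.049, next -0.44) and the means of adipocyte genes (-0.92, next -2.89) and ERK pathway outputs (-0.15, next 0.45). Untreated replicate 1 was lowest for Selenow (-3.28, next -2.23).

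Among the other three-week tumours, replicate 4 was lowest for Atp6v1b2 (-0.76, next -0.17) and highest for Psmd3 (1.12, next 0.60). Replicate 6 was lowest for Twist1 (-1.65, next -1.16) and Bcl2 (-1.001, next -0.48), and replicate 7 was highest for the mean of nucleotide excision repair genes (0.26, next 0.01).

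Responders and non-responders after 3 weeks differed in 6 of 18506 genes by the limma test of that difference: Olfr172 (-5.15), Aph1c (-3.75), Cuzd1 (-2.57), Gdf7 (-1.75), Paqr3 (1.85) and Olfr923 (3.13). Olfr172, Aph1c and Olfr923 were measured in only 1 of the 2 responders, so 3 of the 6 calls rest on 1 responder that is assumed to vary like the other tumours.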

How the results depend on the processing

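For three-week against untreated tumours, where 107 genes passed, the count was 383 with only spots measured on every array, which tests 14562 genes, 55 with the most variable spot of each gene, 318 with array weights and 36 with the tumours of 1 mouse number averaged. It was 0 with 14 arrays only, within the unhyphenated arrays, with the mouse number as a covariate and with non-responders only. Within the hyphen-titled arrays it was 2, with 0 of them among the 107. Leaving out 1 tumour gave 0 to 368. With exact zeros kept as values, the open filter, array medians set to 0, the trend and robust prior, quantile normalization and the title style as a block it was 99, 91, 104, 118, 147 and 72, within 1.5 times of 107. Quantile normalization changed the split to 89 higher and 58 lower. Mcm4 turned to 0.084 within the hyphen-titled arrays. The causes were not tested.

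For three-week against two-week tumours the count was 8 within the hyphen-titled arrays, which hold 1 two-week tumour, assumed to vary like the others, and 0 to 1 with 1 tumour left out, two-week tumours included, an alternative added after seeing the data. Of the other settings each gave 0 in limma. For responders against non-responders, where 6 passed, the count was 3 with zeros kept, 2 with spots of every array, 12 with the most variable spot, 16 with quantile normalization, 10 with 14 arrays only, 1 with the title style as a block, 0 within the hyphen-titled arrays and 21 with array weights, and 5 to 66 with 1 tumour left out, where leaving out a responder keeps 1.

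No paired analysis was possible because the labels give no replicate number shared between groups, and replicates were numbered in accession order.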
